A study of Mus musculus with 12 samples.

Results

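Processed-transcript long non-coding RNAs (lncRNAs) were taken as the rows of the authors' annotated lncRNA table whose gene type is processed_transcript, a class that gene catalogues give to processed RNAs with no open reading frame that are not placed in a narrower class. They came to 469 of the 2789 rows and belonged to 280 genes, of which 186 had 1 such transcript, 94 had 2 or more and the largest had 10. The symbols Malat1, Neat1, Miat, Rmst, Pantr1 and H19 were to be left out, and 0 rows of this type carried them. The choice rests on the annotation alone and used no measured value. Checked against the GENCODE M21 catalogue (build GRCm38, which also gives the coordinates below), 466 of the 469 transcript IDs were found, and 450 of these still belonged to a gene of the same type. At the level of the single transcript, M21 called 232 of them processed transcripts, 112 intergenic lncRNAs, 67 antisense RNAs and 40 retained introns. It called 2 of them protein-coding. Of the 280 genes, 14 bear a symbol that RefSeq lists as protein-coding, Cct6a and Sptbn5 among them, so the class is not made of independent non-coding genes alone. The symbols Cct6a and Sptbn5 do not occur among the authors' protein-coding rows. Whether the member rows of these genes take in reads of coding RNA was not tested.

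Total RNA had been sequenced from mouse trigeminal ganglia (TG), the seat of facial sensory neurons, and from the nucleus caudalis of the spinal trigeminal complex (Sp5C), the hindbrain station of their pain fibres. All libraries came from wild-type C57BL/6 mice aged 8 weeks, and the series deals with chronic inflammation and pain at the temporomandibular joint. Sample titles gave 4 groups of 3 libraries, STG and CTG from ganglia and SSp5C and CSp5C from the nucleus. The labels explain neither the letter S nor the letter C, name no agent, and do not say whether a library is 1 animal or a pool, so both letters are kept unexplained.

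LncRNAs of this kind work in several ways. Some are spliced only to release small nucleolar RNAs (snoRNAs), which guide the modification of ribosomal RNA, or microRNAs (miRNAs) from their introns or exons, and the leftover exons are by-products. Others start from the promoter region of a protein-coding gene on the opposite strand, and a few come from imprinted clusters where only 1 parental copy is read.

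Some of the miRNAs whose hairpins lie within tested members are shown first, because 2 hosts with cargo of the same seed differed in opposite directions between the tissues. Each is printed 5′ to 3′ from RefSeq (GRCm38.p6) with the seed, bases 2 to 8, in capitals, and 1 arm per hairpin is given.
miR-99a-5p: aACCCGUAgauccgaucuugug
miR-100-5p: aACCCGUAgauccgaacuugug
let-7c-5p: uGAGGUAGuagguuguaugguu
let-7b-5p: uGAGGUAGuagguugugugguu
miR-125b-5p: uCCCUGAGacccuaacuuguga
miR-22-3p: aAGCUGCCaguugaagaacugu
miR-16-5p: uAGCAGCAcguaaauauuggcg
miR-181a-5p: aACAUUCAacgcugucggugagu
miR-181b-5p: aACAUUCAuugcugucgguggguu
The miR-99a and miR-100 seeds are the same letters, as are those of let-7b and let-7c and those of miR-181a and miR-181b. Mir99a and Mirlet7c-1 lie in Mir99ahg (chromosome 16), and Mir100 and Mir125b-1 in the overlapping genes 3110039I08Rik and Gm49317 (chromosome 9). Mir22 lies in Mir22hg, Mir16-1 in Dleu2, the Mir181 pair in Gm4258 and Mirlet7b in Lncppara. Mirlet7a-2, which also lies in Gm49317, and the hairpins of other hosts are not printed.

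The start windows of snoRNA hosts follow, since these genes are known for RNAs that begin with a run of pyrimidines (the 5′ terminal oligopyrimidine tract of ribosomal protein genes). Each window holds the 20 bases before and the first 30 bases of the RNA from RefSeq (GRCm38.p6), and the capitals mark the longest run of C and T that begins within 10 bases of the start. The first 8 were chosen for a run of at least 5, and Snhg15, with a run of 4, is shown for contrast. Zfas1 also has a run of 4 and is not printed because its window overlaps a coding exon.
Gas5: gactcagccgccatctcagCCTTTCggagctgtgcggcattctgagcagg
Snhg1: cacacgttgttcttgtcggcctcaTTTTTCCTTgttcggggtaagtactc
Snhg3: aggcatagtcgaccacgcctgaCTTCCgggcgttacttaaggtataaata
Snhg5: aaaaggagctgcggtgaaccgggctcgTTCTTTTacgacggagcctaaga
Snhg8: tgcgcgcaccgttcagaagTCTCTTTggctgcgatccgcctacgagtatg
Snhg17: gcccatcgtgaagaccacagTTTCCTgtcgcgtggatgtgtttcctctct
2410006H16Rik: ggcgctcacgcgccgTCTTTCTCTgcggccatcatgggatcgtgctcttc
1110038B12Rik: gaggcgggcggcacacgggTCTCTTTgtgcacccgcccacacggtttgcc
Snhg15: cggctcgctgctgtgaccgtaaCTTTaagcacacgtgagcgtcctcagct
In order, the windows lie at chr1:161035146-161035195, chr19:8723467-8723516, chr4:132353657-132353706, chr9:88522868-88522917, chr3:123508307-123508356, chr2:158361480-158361529, chr11:62602857-62602906, chr17:34952439-34952488 and chr11:6528731-6528780, those of Snhg3, Snhg5, Snhg8, Snhg17, 1110038B12Rik and Snhg15 on the minus strand and the others on the plus strand. A run of at least 5 pyrimidines was present in 9 of 13 host promoters (69.2%), in 39.5% of the 119 promoters of other members and in 40.7% of the 32851 promoters of the whole RefSeq table.

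Promoters differed in how many CG pairs they keep. Of the members in M21, 200 from 124 genes had a RefSeq promoter (250 bases before to 50 after the start) that begins within 100 bases of their own start, 132 distinct sequences in all. The median ratio of observed to expected CG was 0.76 in these, against 0.38 over the whole table, and it reached at least 0.6 in 68.9% against 35.8%. All 13 promoters of snoRNA hosts reached it. The box TATAAA, searched on both strands, occurred in 12.1% of member promoters, in 6 of the 13 host promoters and in 13.6% of the table. Below are the promoters of 3 members that differed strongly between the tissues, with each CG in capitals.
Gm10863: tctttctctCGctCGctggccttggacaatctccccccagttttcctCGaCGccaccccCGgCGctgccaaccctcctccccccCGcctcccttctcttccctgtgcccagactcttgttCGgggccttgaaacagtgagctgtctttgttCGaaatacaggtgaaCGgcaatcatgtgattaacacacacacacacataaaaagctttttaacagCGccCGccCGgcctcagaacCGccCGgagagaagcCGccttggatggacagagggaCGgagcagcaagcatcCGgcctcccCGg
B230206H07Rik: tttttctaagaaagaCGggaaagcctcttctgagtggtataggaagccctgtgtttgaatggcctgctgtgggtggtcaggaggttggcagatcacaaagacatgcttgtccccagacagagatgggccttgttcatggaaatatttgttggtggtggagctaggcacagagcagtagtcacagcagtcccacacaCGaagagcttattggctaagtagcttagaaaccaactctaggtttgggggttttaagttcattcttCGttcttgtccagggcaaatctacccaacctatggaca
A330076H08Rik: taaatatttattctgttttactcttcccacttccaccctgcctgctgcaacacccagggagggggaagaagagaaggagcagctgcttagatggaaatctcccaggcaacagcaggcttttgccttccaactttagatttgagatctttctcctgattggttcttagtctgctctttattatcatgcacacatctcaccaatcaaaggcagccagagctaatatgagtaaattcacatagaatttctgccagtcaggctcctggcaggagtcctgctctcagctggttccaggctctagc
They lie at chr15:79165816-79166115 (plus strand), chr7:141365061-141365360 (minus) and chr7:61982306-61982605 (minus). Gm10863 holds 19 CG pairs, B230206H07Rik 3 and A330076H08Rik 0. Over the tested members the ratio was alike in both directions of the tissue difference, with a median of 0.73 in promoters of transcripts higher in TG and 0.71 in those of transcripts lower in TG.

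Levels were low throughout. The authors' values are FPKM, sequenced fragments relative to the length of the transcript and the size of the library. The median of the 469 mean levels over 12 libraries was 0.605 FPKM, from 0.00297 to 58.6, and 33 rows reached 5 FPKM. A mean of at least 0.5 FPKM, the floor for testing, was met by 264 rows (56.3%), against 52.2% of intergenic, 45.4% of antisense and 69.5% of TEC rows (unclassified loci still to be tested). The highest mean, 58.6 FPKM, belonged to Cct6a-201, a transcript of the gene for a chaperonin subunit that holds Snora15 in its span. Next came Gm21984-201 (24.4), Rian-204 (19.3), Gas5-210 (18.1), Snhg8-201 (18), Gas5-224 (18), Snhg14-211 (17.1) and Sox2ot-211 (13.7), so snoRNA hosts and imprinted RNAs made up most of the top. Cct6a-201 was nearly level, with 59.8, 58.6 and 59.2 FPKM in STG, 61.5, 63.1 and 66.6 in CTG, 58.1, 54.6 and 54.6 in SSp5C, and 56.3, 56.4 and 54.3 in CSp5C. The tissues did not overlap in it, and its difference was 0.14 ± 0.04 (SE) on the log2(FPKM + 0.5) scale (adjusted p = 0.0145). That small difference did not pass with C libraries only (adjusted p = 0.0824), with S libraries only (0.295), without trend or robust moderation (0.113) or summed per gene (0.053), and quantile normalization put it at 0.56.

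Across the members, libraries grouped by tissue and not by letter. Pearson's r between log2 levels was 0.829 to 0.933 within a group, 0.819 to 0.938 between S and C of the same tissue and 0.444 to 0.542 between tissues, as a description across rows. The tissue labels fit protein-coding markers: a sensory neuron list of 12 genes summed to 1410 to 1660 FPKM in TG and 42.9 to 79.7 in Sp5C, and an astrocyte list of 7 genes to 54 to 108 in TG and 709 to 972 in Sp5C. Schwann cell genes (8) summed to 3150 to 4100 in TG and 18.8 to 31.7 in Sp5C, and oligodendrocyte genes (8) to 79.4 to 130 and 550 to 790. A hindbrain neuron list of 11 genes summed to 118 to 154 in TG and 482 to 556 in Sp5C. Of its genes, 8 were higher in all Sp5C libraries and 1 in all TG libraries. For the oligodendrocyte genes these counts were 7 and 1. Marker genes of other tissues were high in some TG libraries. A pituitary list of 9 genes summed to 2880 FPKM in STG replicate 1 and to 2.57 to 51.7 in the other TG libraries. A neutrophil and bone marrow list of 14 genes summed to 105 to 917 in STG, 444 to 1520 in CTG and 284 to 655 in Sp5C. A bone and cartilage list of 8 genes summed to 7.36 to 13.2 in STG and 15.5 to 109 in CTG, with no overlap and the highest value in CTG replicate 1. A skeletal muscle list of 7 genes stood at 18.8 in CTG replicate 1 and at 1.48 to 1.93 in the other TG libraries. The number of reads behind an FPKM value is unknown, so no interval for counting error is given. Since the labels name no separate animals, each p-value reflects library-to-library spread alone, which may be technical.

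Most tested members differed between TG and Sp5C, in both directions. Of the 264 tested rows (173 genes), 70 were higher in TG, 82 were lower and 112 did not pass. That is 57.6%, beside 53.7% of the 1611 tested rows of the whole table, 28.2% higher and 25.5% lower. An unadjusted p lay under 0.05 in 160 members (beside 57.9% of the table). Without STG replicate 1, where the pituitary list is high, 68 were higher and 84 lower, and without CTG replicate 1 the counts were 66 and 85. The tissues did not overlap in 97 rows (36.7%, beside 31.5% of the table). The median difference was -0.08 in the members and 0.04 over all tested rows. Because tissues are mixtures, fewer cells of a type and less RNA per cell cannot be told apart here or below. When the tissues were compared within S libraries and within C libraries, which have no library in common, 122 and 109 of the 245 members tested in both passed, and 84 passed in both, all in the same direction (68.9% of the first set and 77.1% of the second). Over the 1515 rows of the table tested in both, 761 and 600 passed and 428 did so in the same direction (56.2% and 71.3%).

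**Figure D1:**
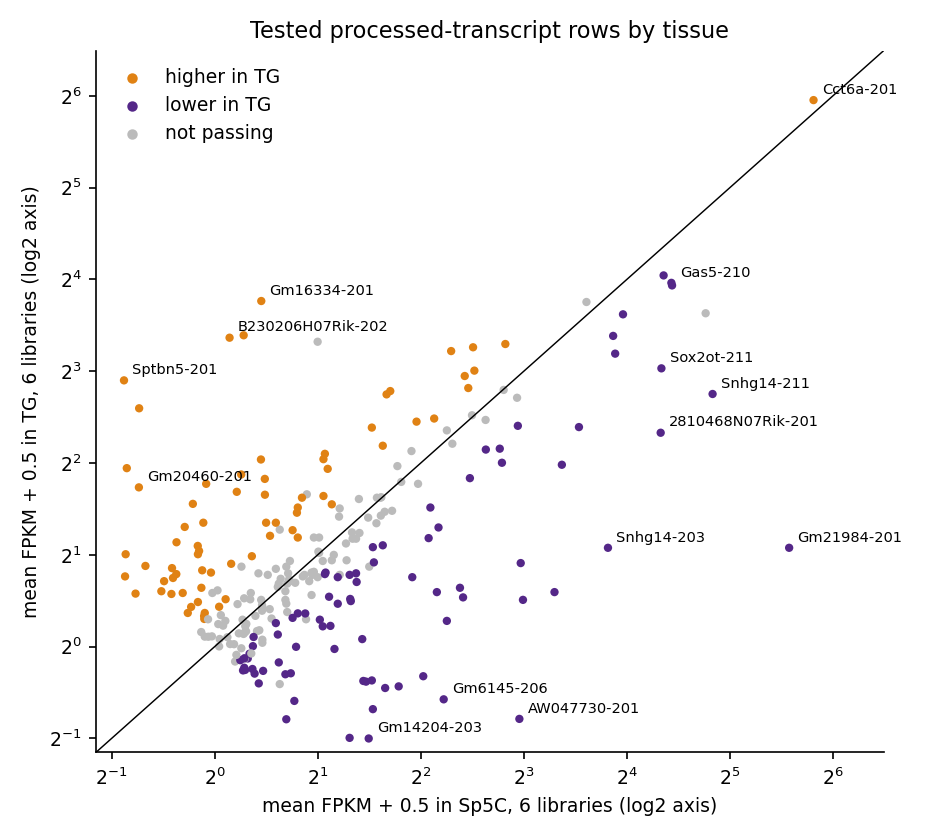
Mean level of each tested member in Sp5C (x axis) and TG (y axis), 6 libraries each, as FPKM + 0.5 on log2 axes; the line marks equal levels and colours mark the 70 rows higher in TG, the 82 lower and the 112 that did not pass. Sptbn5-201 and Gm16334-201 lie far above the line, and Gm21984-201 and AW047730-201 far below it.

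Of the lower calls among snoRNA hosts, many came from Snhg14. The list of 12 genes with rows here had 38 tested rows, of which 3 were higher in TG, 19 lower and 16 did not pass, with a median of -0.35. Beside these stand 26.5% higher and 31.1% lower among all tested members, with a median of -0.08. Snhg14 alone gave 10 of the 19. Without it, 28 rows of 11 genes remained, with 3 higher, 9 lower and a median of -0.17. The share that was lower lay near that of all members, while the share that was higher was smaller. With so few genes, that gap was not tested. By M21, 47 members of 15 genes span at least 1 snoRNA gene.

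Gas5, a host of many box C/D snoRNAs whose spliced RNA builds up when translation slows, was among the most abundant members. Gas5-224, about level with Gas5-210 and with its M21 start (position 161035163 of chromosome 1) inside the window printed above, had 16.4, 15.6 and 13.8 FPKM in STG, 17, 12.8 and 13.3 in CTG, 22.9, 20.4 and 19.1 in SSp5C, and 27.4, 20 and 17.2 in CSp5C. All TG libraries lay below all Sp5C libraries, by 0.49 ± 0.11 on the log2 scale (a difference of -0.49, adjusted p = 0.00222). Under quantile normalization the difference was -0.22 and did not pass (adjusted p = 0.173). Snhg8-201, host of Snora24, showed the same order, with 16 FPKM in TG and 20 in Sp5C on average (log2 difference -0.31, adjusted p = 0.00112), but it turned to 0.09 under quantile normalization. Snhg3-202, which spans Snora73b, had 9.95 against 14.1 FPKM (-0.48, adjusted p = 4.04e-04). Rows higher in TG were Gas5-205 (described below with the other isoforms), 1110038B12Rik-202 (0.41, adjusted p = 0.00818) and 1110038B12Rik-201. The last, host of Snord52, had 6.22 ± 0.385 FPKM (SD, n = 6, as for tissue means below) in TG and 2.68 ± 0.346 in Sp5C, a difference of 1.08 ± 0.09 (adjusted p = 2.12e-07).

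Zfas1, which spans Snord12 and starts head to head with Znfx1, differed by transcript. Zfas1-201, called a retained intron by M21, had 0.268 ± 0.155 FPKM in TG and 2.27 ± 0.594 in Sp5C (-1.85, adjusted p = 2.37e-07). The 5-exon form Zfas1-205 had 3.96 ± 0.885 and 6.31 ± 0.756 (-0.62, adjusted p = 4.98e-04). Zfas1-203 and Zfas1-204 differed by -0.06 each and did not pass. The 4 Zfas1 rows summed to 6.0 ± 1.19 FPKM in TG and 10.5 ± 0.781 in Sp5C.

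Among imprinted RNAs, 12 of 13 tested rows were lower in TG, 0 were higher and the median was -2.09. Among all tested members, 31.1% were lower and 26.5% higher, with a median of -0.08. The 13 rows came from only 3 genes, Snhg14, A330076H08Rik and Rian. Of them 10 are Snhg14 rows, so the count and the median mostly describe that 1 gene. Snhg14 is the long paternally read RNA of the region that is lost in Prader-Willi syndrome. It carries arrays of C/D snoRNAs and runs antisense into Ube3a, whose paternal copy is silent in neurons. All 10 Snhg14 rows were lower in TG, by 1.01 to 2.76 on the log2 scale (differences of -1.01 to -2.76), and in each of them the tissues did not overlap. Snhg14-202 did not pass with C libraries only (-1.62, adjusted p = 0.146).

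The most abundant, Snhg14-211 (12 exons, chr7:59937371-59975759, minus strand), had 7.54, 7.4 and 6.76 FPKM in STG, 4.77, 5.97 and 4.98 in CTG, 25.2, 27.4 and 28.9 in SSp5C, and 23.8, 30.1 and 32.4 in CSp5C. Its difference was -2.09 ± 0.09 (adjusted p = 4.80e-10). Snhg14-203 (chr7:59676393-59696230) showed the widest gap, with 2.22, 1.70 and 1.82 in STG, 1.40, 1.67 and 0.848 in CTG, 14.9, 11 and 15 in SSp5C, and 11.5, 15.2 and 14.2 in CSp5C (-2.76, adjusted p = 1.49e-09). The rows summed to 14.4 ± 3.6 FPKM in TG and 83.7 ± 9.63 in Sp5C. Protein-coding genes of the region differed less or hardly at all: Ube3a had 32.1 ± 1.04 FPKM in TG and 32.7 ± 1.93 in Sp5C, Snrpn 178 ± 14.4 and 224 ± 8.33, and Ndn 32.1 ± 1.97 and 58.7 ± 1.96.

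**Figure D2:**
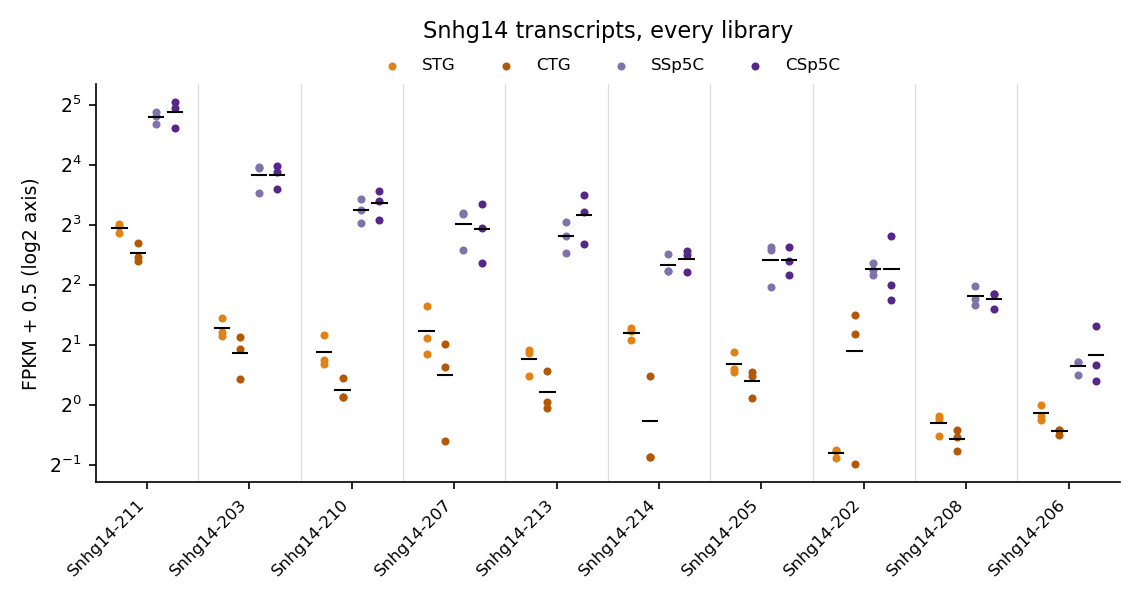
FPKM + 0.5 (log2 axis) of the 10 Snhg14 transcripts in each of 12 libraries, ordered by mean level; points are libraries, coloured by group, and bars are group means. Every transcript lies higher in all Sp5C libraries than in all TG libraries, and Snhg14-214 and Snhg14-202 spread widely among CTG libraries.

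A330076H08Rik-203, from the same imprinted stretch of chromosome 7 and with the CG-free promoter printed above, had 5.49, 4.40 and 3.80 FPKM in STG, 2.49, 3.02 and 1.51 in CTG, 9.23, 7.86 and 7.84 in SSp5C, and 9.01, 10.8 and 14.3 in CSp5C. The tissues did not overlap (-1.44 ± 0.15, adjusted p = 2.69e-06). Rian-204, of the maternally read Dlk1-Dio3 cluster, could not be judged. It is listed at 0 in STG replicate 1, CTG replicate 1 and CSp5C replicate 1 and at 14.8 to 43.3 FPKM in the other libraries, and an exact 0 in such a table can be a failed estimate.

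Rows that hold a miRNA hairpin went both ways. Of 16 tested, 6 were higher in TG, 6 lower and 4 did not pass, beside 26.5% higher and 31.1% lower among all tested members, with which so few rows cannot be contrasted. The list of named miRNA host genes had 9 of 12 rows higher and 0 lower, with a median of 0.76, but these rows come from only 4 genes (Dleu2, Mir22hg, Mir99ahg and Rian). The list was matched by symbol, so it leaves out the rows of 3110039I08Rik and Gm49317, which hold Mir100 or Mir125b-1. Those called among them were lower in TG, as given below. Mir99ahg-209, which spans Mir99a and Mirlet7c-1 (chr16:77329504-77691399), had 2.25 ± 0.5 FPKM in TG and 1.24 ± 0.272 in Sp5C (0.66, adjusted p = 5.89e-04). Gm49317-201, which spans Mir100, Mirlet7a-2 and Mir125b-1 (chr9:41474855-41655483), went the other way, with 1.39 ± 0.495 and 2.42 ± 0.188 (-0.67, adjusted p = 1.80e-04).

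The overlapping 3110039I08Rik-204, which holds Mir125b-1 alone, had 10.6, 9.64 and 9 FPKM in STG, 8.32, 7.62 and 6.67 in CTG, 10.7, 14.9 and 14.7 in SSp5C, and 13.5, 16.4 and 15.8 in CSp5C (-0.70 ± 0.10, adjusted p = 5.07e-05). Of the 3 tested rows that hold Mir100, Gm49317-201 passed, while 3110039I08Rik-212 (-0.60, adjusted p = 0.121) and 3110039I08Rik-214 (-0.21, adjusted p = 0.193) did not. Thus Mir99ahg-209 and Gm49317-201, which span miRNAs with the same seed, differed in opposite directions. Host levels do not measure the mature miRNAs, which were not measured here.

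Mir22hg-202, host of miR-22, had 10.5, 8.96 and 8.79 FPKM in STG, 9.33, 8.97 and 7.97 in CTG, 5.30, 4.55 and 5.07 in SSp5C, and 5.41, 5.94 and 4.84 in CSp5C. All TG libraries exceeded all Sp5C libraries (0.75 ± 0.08, adjusted p = 5.10e-06). Dleu2-208, which spans Mir16-1, had 3.61 ± 0.857 FPKM in TG and 0.866 ± 0.402 in Sp5C (1.61, adjusted p = 3.19e-06). Gm4258-201, host of the miR-181 pair, was lower in TG, at 1.62 ± 0.22 against 2.40 ± 0.404 (-0.44, adjusted p = 0.00509). Lncppara-202, host of let-7b, differed by 0.04 ± 0.14 and did not pass (adjusted p = 0.833).

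Transcripts that start beside a protein-coding gene often differed between the tissues as that gene did. Of 466 members placed on the genome, 197 (42.3%) start within 1 kb of a protein-coding start, 173 of them on the opposite strand. Taking 1 tested transcript per gene, the one with the larger tissue difference, the Pearson correlation between its difference and the neighbour's was 0.61 (Spearman 0.45) over 82 genes with starts within 1 kb. It was 0.30 (0.31) over 23 genes at 1 to 10 kb and 0.32 (0.24) over 67 genes beyond 10 kb. These are descriptions across genes that share the same libraries. Among the 50 members within 1 kb that passed, 36 had the sign of their neighbour, against 23 of 45 beyond 10 kb.

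The libraries were prepared with a kit that keeps strand, but whether the authors' counting used it is not given in the sources used here. Reads from an overlapping or antisense partner can therefore not be told apart from those of the member.

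Gm14204 starts 44 to 108 bases from Slc32a1, the vesicular transporter of the inhibitory transmitters GABA and glycine, and runs the opposite way. Gm14204-203 (3 exons, chr2:158595472-158610659, minus strand) is listed at 0 in all 6 TG libraries and had 2.02, 2.71 and 2.68 FPKM in SSp5C and 1.55, 2.07 and 2.91 in CSp5C (adjusted p = 1.83e-09). Slc32a1 itself had 0.0483 ± 0.039 FPKM in TG and 55.2 ± 4.06 in Sp5C.

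2810468N07Rik-201 (chr17:25570358-25575043) starts 328 bases from Sox8, a glial transcription factor. It had 4.06, 4.87 and 4.29 FPKM in STG, 5.31, 4.64 and 3.97 in CTG, 22.7, 21 and 19.7 in SSp5C, and 19.7, 19.4 and 14.8 in CSp5C (-1.99 ± 0.10, adjusted p = 1.58e-09). Sox8 had 7.43 ± 0.985 and 26.3 ± 4.08 FPKM. Gm15912-201, 53 bases from Tppp, a tubulin-binding protein of myelinating oligodendrocytes, had 0.559 ± 0.0764 in TG and 2.20 ± 0.351 in Sp5C, while Tppp had 5.35 ± 0.341 and 71.3 ± 8.58. 2610316D01Rik-201, 138 bases from the protocadherin gene Pcdh10, and A530058N18Rik-203, 91 bases from the gap junction gene Gjd2, were lower in TG too, by log2 differences of -1.56 and -1.73.

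In the other direction, 2610027K06Rik-202 starts 328 bases from the T-box gene Tbx2 and had 1.84, 1.78 and 1.99 FPKM in STG, 0.796, 1.14 and 1.5 in CTG, 0.0905, 0.117 and 0 in SSp5C, and 0.0799, 0.0112 and 0 in CSp5C. The difference was 1.84 ± 0.12 (adjusted p = 2.11e-08), and Tbx2 had 10.8 ± 1.06 FPKM in TG and 1.40 ± 0.345 in Sp5C. 2810430I11Rik-201, 627 bases from the collagen gene Col5a1, had 1.20 ± 0.216 and 0.0476 ± 0.0127 FPKM (1.63, adjusted p = 8.41e-09), beside 16.4 ± 3.23 and 1.51 ± 0.709 for Col5a1. Gm10863-204, whose CG-rich promoter is printed above, starts 826 bases from Sox10, the master factor of Schwann and satellite glia and of oligodendrocytes. It had 5.30, 3.31 and 1.69 FPKM in STG, 2.96, 1.70 and 2.54 in CTG, 0.703, 0.494 and 0.384 in SSp5C, and 0.810, 0.157 and 0.121 in CSp5C (1.83 ± 0.25, adjusted p = 7.37e-05), and Sox10 had 47.8 ± 7.09 and 25.5 ± 4.01. Zfas1 was among the exceptions, since its neighbour Znfx1 was higher in TG (21.4 ± 2.03 FPKM) than in Sp5C (11.4 ± 0.607).

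**Figure D3:**
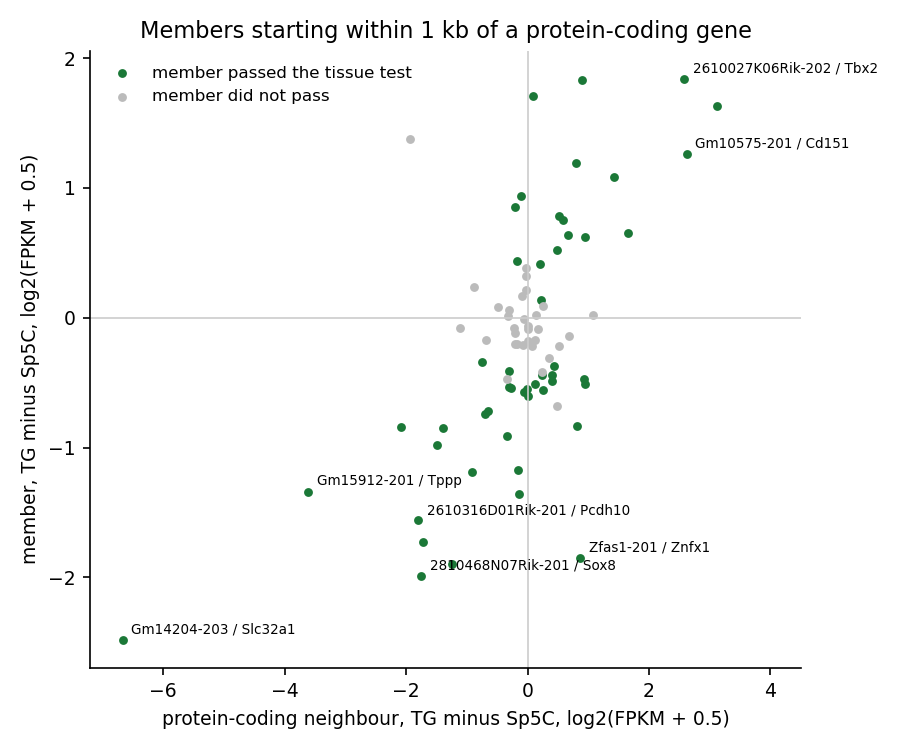
Tissue difference (TG minus Sp5C, log2(FPKM + 0.5)) of 82 members, 1 per gene, against that of the protein-coding gene whose start lies within 1 kb; green points passed the tissue test. Gm14204-203 with Slc32a1 marks the lower left, its position set by the pseudocount since it is listed at 0 in TG, and Zfas1-201 with Znfx1 is off the common direction.

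Other members with a large gap start farther than 1 kb from any protein-coding start. Sptbn5-201 and Sptbn5-202 are transcripts of the gene for a beta spectrin, a protein of the membrane skeleton. Sptbn5-201 (14 exons, chr2:120073741-120085693, minus strand) had 8.93, 10.3 and 7.08 FPKM in STG, 4.42, 5.63 and 5.43 in CTG, 0, 0.0257 and 0.0201 in SSp5C, and 0.082, 0.134 and 0 in CSp5C. The tissues were far apart (3.73 ± 0.11, adjusted p = 2.85e-11), the largest rise in TG among the members. Gm16334-201, inside Kcnab2, a potassium channel subunit gene on the same strand, had 12.8, 13.8 and 13.5 in STG, 10.6, 12.7 and 15.4 in CTG, 0.971, 0.724 and 0.717 in SSp5C, and 0.868, 0.557 and 1.38 in CSp5C (3.33 ± 0.14, adjusted p = 3.82e-10).

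B230206H07Rik-202, with the CG-poor promoter printed above (chr7:141359141-141365082), had 11.8, 12 and 12 FPKM in STG, 7.07, 8.33 and 7.63 in CTG, 0.674, 0.975 and 0.596 in SSp5C, and 0.388, 0.506 and 0.497 in CSp5C (3.21 ± 0.09, adjusted p = 2.85e-11). It lies within Eps8l2 on the opposite strand, which had 1.11 ± 0.154 FPKM in TG and 0.881 ± 0.346 in Sp5C. Gm16551-203 begins 13938 bases from Onecut1, a transcription factor of developing neurons, and had 3.35 ± 0.777 in TG and 0.054 ± 0.0239 in Sp5C (2.78, adjusted p = 1.42e-10). Onecut1 had 6.00 ± 0.829 and 0.251 ± 0.126.

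Smaller in level but also without overlap between the tissues was Gm20460-201 (chr17:34614484-34627349). It overlaps Egfl8 and Ppt2 on its own strand, so its value may include their reads. Gm20460-201 had 2.87, 3.06 and 2.68 FPKM in STG, 2.78, 3 and 2.62 in CTG, 0.101, 0.0296 and 0.121 in SSp5C, and 0.102, 0 and 0.252 in CSp5C (2.48 ± 0.11, adjusted p = 5.38e-10). Its TG values were close together in both letters. Gm20559-203 had 3.79, 4.11 and 2.89 in STG, 3.13, 2.95 and 2.15 in CTG, 0.472, 0.578 and 0.461 in SSp5C, and 1.09, 1.24 and 0.334 in CSp5C (1.65, adjusted p = 2.65e-06), again without overlap.

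The lowest member in TG relative to Sp5C was Gm21984-201 (6 exons, chr7:126942144-126952873, plus strand). It had 2.06, 1.29 and 1.76 FPKM in STG, 2.45, 1.18 and 0.904 in CTG, 59.3, 47.1 and 45.4 in SSp5C, and 35.9, 53.4 and 42.1 in CSp5C (-4.53 ± 0.18, adjusted p = 4.86e-10). It overlaps Kctd13 and Sez6l2 on its own strand and Asphd1 on the other, so its value may include their reads. AW047730-201 had 0.128, 0 and 0.180 in STG, 0.0754, 0 and 0.0945 in CTG, 8.82, 6.01 and 6.70 in SSp5C, and 7.64, 6.75 and 7.73 in CSp5C (-3.74 ± 0.12, adjusted p = 2.85e-11). Gm6145-206 had 0.172 ± 0.0605 in TG and 4.17 ± 0.78 in Sp5C (-2.79, adjusted p = 2.37e-10), and 2010204K13Rik-204 had 0.30 ± 0.273 and 3.57 ± 0.318 (-2.40, adjusted p = 2.21e-08).

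**Figure D4:**
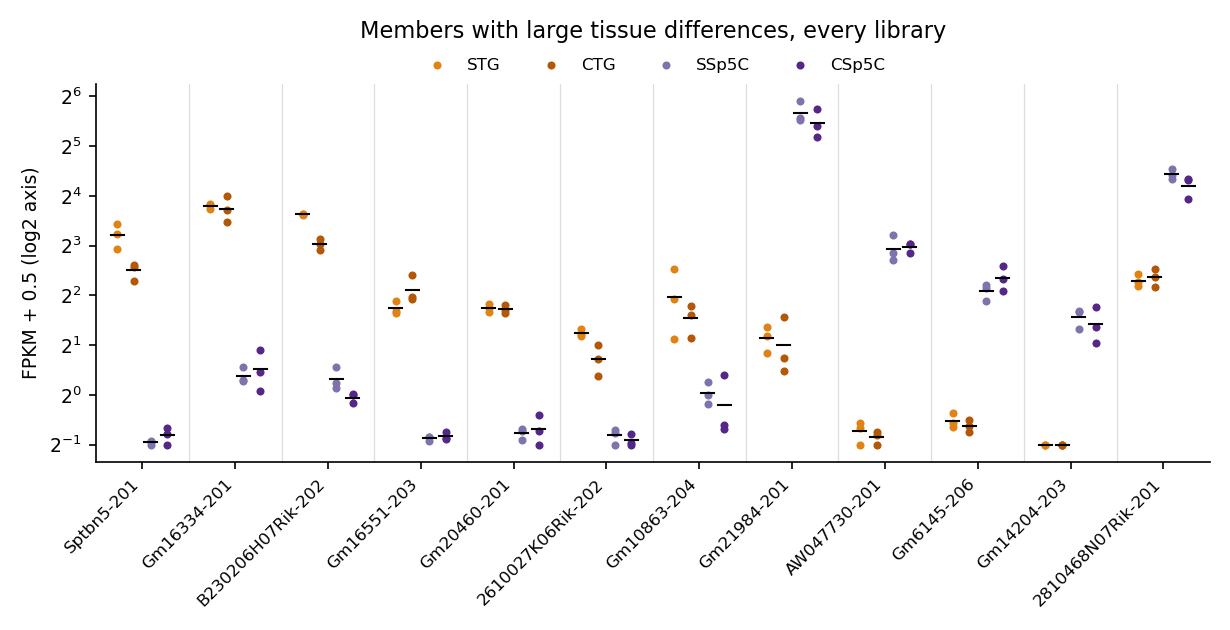
FPKM + 0.5 (log2 axis) of 12 members with large tissue differences in every library; points are libraries, coloured by group, and bars are group means. In the 7 members on the left every TG library is above every Sp5C library, and in the 5 on the right every TG library is below.

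Sox2ot-211 overlaps Sox2, the gene of a factor kept by neural progenitors and astrocytes, and had 7.68 ± 1.04 FPKM in TG and 19.7 ± 2.02 in Sp5C (-1.31, adjusted p = 1.31e-08), as Sox2 had 10.3 ± 0.812 and 18.1 ± 2.07. Both tested Sox2ot rows were lower in TG, though Sox2ot-214 did not pass with S libraries only (-0.64, adjusted p = 0.0805). Firre, an X-linked RNA that shapes nuclear organisation, had 2 of 4 tested rows higher in TG. Its main row Firre-206 had 8.25, 6.65 and 7.34 FPKM in STG, 6.2, 5.98 and 4.88 in CTG, 4.44, 4 and 5.20 in SSp5C, and 5.25, 5.44 and 5.74 in CSp5C, so the tissues overlapped (0.35 ± 0.09, adjusted p = 0.00613). With C libraries only, neither call held: Firre-206 differed by 0.05 (adjusted p = 0.826) and Firre-210 by 0.15 (0.497). Both tested rows of 1810026B05Rik, which lies next to the chromatin remodeller gene Chd2 and limits its output, were higher in TG by 0.46 and 0.49 (for 1810026B05Rik-203, 6.17 to 9.15 FPKM in TG and 4.5 to 6.32 in Sp5C, which overlap), while Chd2 had 15.6 ± 1.73 and 15.1 ± 2.64 FPKM. These calls, too, were lost with C libraries only (adjusted p = 0.167 and 0.123).

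In 3 genes, transcripts were called in both directions. Of 49 genes with 2 or more tested rows, 14 had calls only higher in TG, 18 only lower and 14 none. The other 3, Gas5, C230004F18Rik and 1500004A13Rik, had calls in both directions. A single called row places a gene in the first 2 sets, so these counts do not show that all its rows went the same way. Such counts were not made over the whole table, so they are not read as a trait of the members. In Gas5, the retained-intron form Gas5-205 had 6.08, 4.78 and 5.38 FPKM in STG, 5.90, 4.75 and 2.94 in CTG, 3.27, 3.39 and 3.08 in SSp5C, and 3.18, 3.39 and 4.06 in CSp5C (0.46 ± 0.14, adjusted p = 0.0108), whereas Gas5-210 and Gas5-224 were lower. Gas5-205 made up 10.7% ± 2.03 of the summed Gas5 rows in TG and 5.97% ± 0.734 in Sp5C (SD, n = 6), with ranges of 6.77 to 12.7% and 5.03 to 7.21% that overlap. C230004F18Rik-204 had 0.523 to 2.58 FPKM in TG and is listed at 0 in 4 of the 6 Sp5C libraries (1.21, adjusted p = 0.0224), while C230004F18Rik-203, C230004F18Rik-205 and C230004F18Rik-202 were lower in TG by log2 differences of -0.79, -0.54 and -0.52. C230004F18Rik-204 took 10.9% ± 6.1 in TG and 1.61% ± 2.69 in Sp5C, and 1500004A13Rik-209 took 41.8% ± 7.36 and 26.2% ± 4.71. Several of these calls were not stable. C230004F18Rik-204 lost its call on leaving out any of 5 single libraries (CSp5C replicate 1 or 2, CTG replicate 1, SSp5C replicate 1 or 3, adjusted p = 0.0519 to 0.0569), and the 3 lower rows of that gene lost theirs with S libraries only (adjusted p = 0.12 to 0.526). 1500004A13Rik-201 (-0.46, adjusted p = 0.0228) lost its call without CSp5C replicate 2 or 3, SSp5C replicate 2 or STG replicate 3 (0.054 to 0.0619), and was at -0.04 with S libraries only (0.895). With C libraries only, Gas5-205 (0.27, adjusted p = 0.389) and 1500004A13Rik-209 (1.08, 0.0739) did not pass. How reads are divided among overlapping transcripts is an estimate by the authors' software, and its part in these splits was not tested.

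Between C and S libraries of TG, the test called 1 of 247 members, and most members lay slightly lower in C, a direction that quantile normalization did not keep. The called member was Dleu2-207 (3 exons, chr14:61632299-61648622), a transcript of the Mir16-1 host gene that does not itself span the hairpin. It had 1.89, 1.65 and 1.88 FPKM in STG and 0.718, 0.687 and 0.664 in CTG (-0.95, adjusted p = 0.0453), with no overlap. Its call rate of 0.405% stands beside 0.131% of the 1522 rows tested in the table. The call rests on all libraries: leaving out each in turn gave an adjusted p of 0.0648 to 0.284. A block for the replicate number gave 0.172, though same-numbered STG and CTG libraries showed no pairing. The 6 Dleu2 rows summed to 9.33 ± 1.32 in STG and 8.88 ± 0.893 in CTG, a difference of -0.06.

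Without adjustment, 45 members had p under 0.05 (44 lower in C, 1 higher), beside 21.9% of the table, and groups did not overlap in 62 (25.1%, beside 31.2%). In all, 188 members had a negative and 59 a positive difference, with a median of -0.15 (-0.23 over all tested rows). Quantile normalization turned the split to 132 positive and 115 negative and the median to 0.04. It forces the tested lncRNA rows of all libraries to 1 distribution, so it takes out any shift that most rows share. Scaling each library by its median ratio over protein-coding genes kept the direction, at 59 positive and 187 negative with a median of -0.15. Row types moved unequally, with medians of -0.29 for TEC and -0.30 for sense-intronic rows against -0.13 for intergenic and -0.12 for antisense rows. The bone and cartilage list separated CTG from STG in the same libraries, as given above, and its part in these values, like that of the pituitary, muscle and neutrophil lists, was not tested.

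Members with the smallest p short of the threshold included B230206H07Rik-202, whose values above show all CTG libraries below all STG libraries (-0.61, adjusted p = 0.136). Sptbn5-202 had 7.25, 7.78 and 6.26 FPKM in STG and 3.20, 4.73 and 4.06 in CTG (-0.77, adjusted p = 0.136). 4933439C10Rik-204 had 1.60, 1.39 and 1.95 against 0.858, 0.809 and 0.791 (-0.70, adjusted p = 0.136). Gm16551-203 was on the other side, at 2.71, 3.22 and 2.65 against 3.30, 3.43 and 4.79 (0.36, adjusted p = 0.235). 1110018N20Rik-202 (1.04, adjusted p = 0.193) and Snhg14-202 (1.36, adjusted p = 0.256) were also positive. Without CTG replicate 1, Snhg14-202 rose to 2.14 and passed (adjusted p = 0.00386). Of 8 tested Snhg14 rows 7 were negative, with a median of -0.51, 4 had p under 0.05 and 0 passed after adjustment, and their sum over 10 rows was 17.2 ± 1.64 in STG and 11.7 ± 2.61 in CTG (-0.56, adjusted p = 0.135). Other snoRNA hosts had a median of -0.15 over 26 rows.

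In Sp5C, 1 of 251 members differed between C and S (0.398%, beside 0.0626% of 1597 tested rows). Gm28373-201 (3 exons, chr12:102673017-102727333, minus strand) lies within the span of Itpk1, an inositol phosphate kinase gene on the same strand. It had 0.00249, 0.000556 and 0.00402 FPKM in SSp5C and 1.38, 1.28 and 1.52 in CSp5C (1.91, adjusted p = 0.00329). In TG the row took either level in both groups, at 1.88, 2.18 and 0.00136 in STG and 0.00944, 2.16 and 1.72 in CTG. The call was lost with a pseudocount of 0.1 (adjusted p = 0.523), with the spread estimated over 12 libraries (0.436) and with a replicate block (0.0795). It was also lost without CSp5C replicate 2 (0.0728) or replicate 3 (0.359).

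Unadjusted p lay under 0.05 for 18 members (beside 8.7% of the table), and groups did not overlap in 30 (12%, beside 14.8%). The split was 153 positive to 98 negative with a median of 0.07 (0.13 over all rows). It was 115 to 136 with a median of -0.02 under quantile normalization, and 149 to 103 with a median of 0.06 under median-ratio scaling. Members closest to the threshold were far from it, each with adjusted p = 0.522. Zfas1-203 had 0.705, 1.02 and 0.570 FPKM in SSp5C and 1.3, 1.47 and 1.60 in CSp5C. Abhd1-202, a transcript of a hydrolase gene, had 7.03, 6.77 and 6.01 against 4.33, 5.71 and 4.38. In both, the groups did not overlap.

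The difference of the C minus S effect between TG and Sp5C was tested over all 12 libraries. None of the 264 members passed by limma (0%, and 0% of the 1611 rows of the table), 39 had an unadjusted p under 0.05 (beside 29.4%), and the lowest adjusted p was 0.07. The median was -0.21, beside -0.37 over all rows. It was -0.20 under median-ratio scaling and 0.07 under quantile normalization. Sptbn5-202 (-0.91, adjusted p = 0.07), A330076H08Rik-203 (-1.27, 0.07), Snhg14-214 (-1.72, 0.0711) and Gm12940-204 (-1.08, 0.0711) came closest. Gm12940-204 overlaps the splicing factor gene Sfpq on its own strand and had 15.8, 15.2 and 14.7 FPKM in STG, 12.3, 10.9 and 9.18 in CTG, 6.47, 9.98 and 11.6 in SSp5C, and 11.5, 14.9 and 15.9 in CSp5C.

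With rows summed per gene, 3 of 186 member genes passed (1.61%, beside 3.07% of the 1431 genes of the table), A330076H08Rik (-1.21, adjusted p = 0.0477), Sptbn5 (-1.02, 0.0477) and Gm12940 (-1.02, 0.0497). Without CSp5C replicate 1, 13 of 263 members passed (4.94%, beside 9.78% of the table), the 4 named above among them. Without CTG replicate 1, Snhg14-214 was at -2.17 (adjusted p = 0.000544) and Snhg14-202, at 1.43 with all libraries (0.241), was at 2.21 (0.0306). A330076H08Rik summed to 6.16, 4.79 and 4.08 FPKM in STG, 2.77, 3.40 and 1.84 in CTG, 10.3, 8.57 and 8.79 in SSp5C, and 9.96, 12 and 15.6 in CSp5C. Within a tissue its C minus S difference did not pass (TG -0.81, adjusted p = 0.124, and Sp5C 0.40, adjusted p = 0.453).

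**Figure D5:**
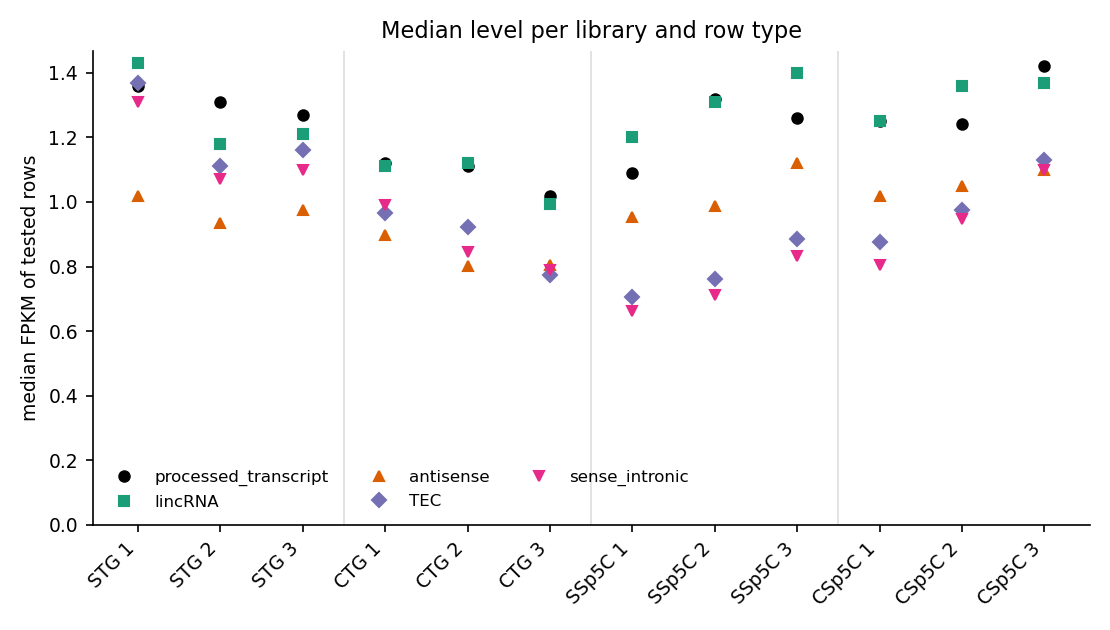
Median FPKM (y axis, from 0) of tested rows in each of the 12 libraries (x axis), by row type. The processed-transcript median runs from 1.27 to 1.36 in STG and from 1.02 to 1.12 in CTG, and the sense-intronic median from 1.07 to 1.31 and from 0.789 to 0.992.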

How the data were processed

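Ribosome-depleted total RNA (3 µg per library, directional NEBNext kit, per the labels' protocols) was sequenced in 12 libraries, 4 groups of 3. The submitters' processing notes name HISAT2, StringTie 1.3.1 and Cuffdiff 2.1.1, and neither build nor annotation is given in the sources used here. FPKM is the unit the authors deposited, per transcript and library, with no counts, so depth is unknown. Here, log2(FPKM + 0.5) of all annotated lncRNA rows with a mean of at least 0.5 FPKM over the libraries compared was fitted with limma 3.58.1 (R 4.3.3, two-sided, intensity trend, robust), adjusting p by Benjamini and Hochberg's method across all tested rows, threshold 0.05. Differences on this scale understate changes of low rows. The script was tested on simulated data with known changes and independent errors. These held no shift shared by the rows of a library and no pairing of libraries, so the test does not cover either. Transcript IDs were matched to GENCODE M21 (GRCm38) for names, types and coordinates, 462 members by gene ID to a current symbol, and lists by the file's or the current symbol. Members and lists were chosen with earlier results of these data known. Named transcripts were the 15 most abundant, the 12 highest and 12 lowest non-overlapping tissue calls, calls or the smallest p (to 4 per direction) of the other comparisons, genes with calls both ways, and up to 6 rows per list. 1110038B12Rik-201, the Zfas1 rows, Mir99ahg-209 and further miRNA hosts, neighbour pairs and the printed promoters were chosen after their values were seen. Same-numbered CTG and CSp5C libraries deviated together from their group means (r = 0.195 to 0.409), a pairing seen in the data and not given by the labels. A replicate block was therefore also fitted. It went by number alone, so it also joined STG and CTG libraries of the same number, which showed no such pairing (r = -0.094 to 0.0378).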

Additional observations from a re-analysis of the deposited data

Results flagged for a closer look

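Among the most abundant and most different members, 76 sets of 6 libraries of a tissue were examined for a library far from the others, which chance flags in about 1 of 20 sets, and 6 were found. Rian-204 is listed at 0 in CSp5C replicate 1 and at 21.9 to 43.3 FPKM in the other Sp5C libraries. 2010204K13Rik-204 had 2.98 FPKM in CSp5C replicate 1, against 3.54 to 3.86 in the others. 2810468N07Rik-201 had 14.8 in CSp5C replicate 3, against 19.4 to 22.7. Gm10863-203 had 0.734 in SSp5C replicate 3 and at most 0.0354 in the others. 2810430I11Rik-201 had 0.0719 in CSp5C replicate 1, against 0.0384 to 0.0501. Gm14204-202 had 0.0139 in STG replicate 1 and is listed at 0 in the other TG libraries.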

How the results depend on the processing

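The alternatives changed the pseudocount, filter, scaling, moderation, feature level, libraries and block. The 70 members higher in TG became 39 with C libraries only (46 with a replicate block, added after seeing the data). They became 44 with a mean of at least 1 FPKM, where fewer rows are tested. With C libraries only, 77 members were lower in TG. With S libraries only, 73 were higher and 59 lower, so the balance of directions differed by letter. The members called came to 44.4% with C libraries only, beside 39.5% of the table. With S libraries only they came to 48.7%, beside 49.8%. Leaving out a library gave 66 to 75 higher and 75 to 85 lower. The single TG call for C against S fell to 0 over all 12 libraries, with no filter, without trend or robust moderation, under quantile normalization, with a replicate block, summed per gene and with protein-coding transcripts. The single Sp5C call fell to 0 over all 12 libraries, with a mean of at least 1, with a pseudocount of 0.1, with a replicate block and with protein-coding transcripts. The causes were not tested. Leaving out a library gave 0 to 1 calls in each direction there. For the difference of effects it gave 0 to 13 more negative in TG and 0 to 1 more positive, and summing per gene gave 3.

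Signs turned for the median tissue difference with S libraries only (0.03) and, under quantile normalization, for the C against S medians (0.04 in TG, -0.02 in Sp5C, 0.07 for the difference) and for Snhg8-201 (0.09). With C libraries only, blocked or not, Gm12940-204 (-0.37), Firre-208 (-0.05) and Firre-204 (-0.15) turned. Summed per gene, where other transcripts join, the tissue differences of Gas5-205 (-0.30), C230004F18Rik-204 (-0.54) and 1500004A13Rik-201 (0.30) turned, as did Snhg14-202 in TG (-0.56), A230103J11Rik-202 in Sp5C (-0.02), and Mir99ahg-207 (-0.42), 5430405H02Rik-202 (-0.04) and Snhg14-202 (-0.63) for the difference. Of 58 members named for the tissue contrast, 37 kept direction and call throughout. Across the tissues, replicate numbers paired the C libraries: same-numbered deviations of CTG and CSp5C correlated at 0.195 to 0.409, and all 6 libraries were closest to their own number. In the other groups compared, pairing was absent or less clear. For STG and CTG the correlations were -0.094 to 0.0378, and 1 of 6 libraries was closest to its own number. For SSp5C and CSp5C they were -0.0217 to 0.295, with 3 of 6. For STG and SSp5C they were 0.00155 to 0.133, with 3 of 6. With the replicate block over all 12 libraries, the tissue contrast gave 72 higher and 82 lower.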
